A study of Mus musculus with 18 samples.

Results

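Basement membranes are thin extracellular sheets that separate epithelial and other cells from connective tissue. Laminins are trimers of an alpha, a beta and a gamma chain, collagen IV is a trimer of alpha chains, and both polymerise into networks that nidogens and the heparan sulfate proteoglycan perlecan join together. The genes described here are 10 core members of these networks: the laminin chains Lama4, Lama5, Lamb1, Lamb2 and Lamc1, the collagen IV chains Col4a1 and Col4a2, the nidogens Nid1 and Nid2, and Hspg2, which encodes perlecan. They were taken by symbol, ignoring case, and all 10 were present among the 24455 genes listed for the 168FARN line and the 24532 listed for the LLC1 line.

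The libraries came from cancer cells of mouse lines, 168FARN (breast) and LLC1 (Lewis lung carcinoma), grown as hanging drop spheroids. The cancer cells were alone or mixed with 3 fibroblasts per cancer cell, and per the study's methods they carried GFP and were sorted from the fibroblasts before RNA was taken. In 168FARN the fibroblasts were MMTV-CAF, cancer-associated fibroblasts of MMTV-PyMT mammary tumours, and in LLC1 they were wound healing fibroblasts of dorsal skin taken 10 days after wounding. WT fibroblasts carried a control guide RNA (sgNS), and sgPrrx1 fibroblasts had lost the transcription factor gene Prrx1 through CRISPR/Cas9, so that the cancer cells themselves were not edited. Each line had 3 groups of 3 libraries (alone, WT coculture and sgPrrx1 coculture), 18 in all. The line, the kind of fibroblast and the table of counts change together and cannot be told apart. No label says that the 3 libraries of a group came from separate cultures, so p-values measure the spread between these libraries, which may be technical.

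Depth was 48315037 to 68933002 counts per library in 168FARN and 66129117 to 103997557 in LLC1. Replicates were close in 168FARN (biological coefficient of variation 0.0728) and less so in LLC1 (0.228), where sgPrrx1 replicate 3 stood apart from the other libraries of its group, and the LLC1 tests are therefore given with and without it. Prrx1 was detected in every library of sorted cells, at 87.2 to 130.1 CPM (counts scaled to a common library total) in 168FARN and 113.5 to 226.6 CPM in LLC1. Those values do not check the deletion, which was in the fibroblasts. Of 10 epithelial keratin, cadherin and junction markers, the summed level was 329.2 to 432.6 CPM in 168FARN, with Krt5 and Cldn7 at 0 in all 9 libraries. It was mostly Krt8, at 330.5 CPM alone, 371.5 in WT and 419.1 in sgPrrx1 coculture. No 168FARN library had over 6 counts of Epcam or 3 of Cdh1. In LLC1 the sum was at most 0.969 CPM, with Epcam, Krt5, Krt14 and Cldn7 at 0 in all 9. The other marker sums differed between some groups and overlapped between others. In 168FARN, endothelial markers summed to 3.58 to 4.10 CPM alone, 8.67 to 9.56 in WT and 7.40 to 8.69 in sgPrrx1 coculture, pericyte markers to 0.247 to 0.670, 1.88 to 2.13 and 0.401 to 0.938, and immune markers to 47.6 to 51.8, 29.0 to 31.9 and 35.0 to 36.1. In LLC1, in the same order, endothelial markers summed to 12.2 to 13.3, 15.5 to 17.0 and 9.03 to 21.1 CPM, pericyte markers to 26.1 to 30.5, 19.7 to 23.4 and 18.7 to 23.0, and immune markers to 16.0 to 17.3, 36.5 to 38.3 and 36.5 to 64.9. The 168FARN immune sums were mostly Cd68 and Lyz2, at means of 23.9 and 25.5 CPM alone. Emcn, Cldn5, Erg and Cd3e were at 0 throughout. The highest endothelial and immune sums of LLC1 were those of sgPrrx1 replicate 3. The part of these markers in the members' values was not tested.

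The chains of a network are made from genes spread over the genome, with 1 exception. In GRCm38.p6, Col4a1 (chr8:11198423-11312889, minus strand) and Col4a2 (chr8:11312805-11449287, plus strand) lie head to head and their spans overlap at the 5′ ends. The RNA kit does not mark strand, so reads in the overlap cannot be assigned to either gene. RefSeq promoter windows (250 bases before to 50 bases from the start site on) were found for 7 of the 10 members, and the Col4a1 and Col4a2 windows share 78 bases, with start sites 21 bases apart. The Col4a1 window, chr8:11312777-11313076 on the minus strand, is shown 5′ to 3′, with the bases shared with the Col4a2 window in capitals. Any part of the shared stretch in the levels of these genes was not tested. The Nid1 window, chr13:13437352-13437651 on the plus strand, is shown because Nid1 had the largest change of the members in 168FARN, with its match to the GC box GGGCGG in capitals.
Col4a1: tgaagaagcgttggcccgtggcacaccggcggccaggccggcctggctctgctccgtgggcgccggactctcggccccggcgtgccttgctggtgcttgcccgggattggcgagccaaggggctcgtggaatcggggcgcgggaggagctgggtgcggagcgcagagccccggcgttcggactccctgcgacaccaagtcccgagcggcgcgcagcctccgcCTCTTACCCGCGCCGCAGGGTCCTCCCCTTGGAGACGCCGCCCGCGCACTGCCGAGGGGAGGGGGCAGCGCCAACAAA
Nid1: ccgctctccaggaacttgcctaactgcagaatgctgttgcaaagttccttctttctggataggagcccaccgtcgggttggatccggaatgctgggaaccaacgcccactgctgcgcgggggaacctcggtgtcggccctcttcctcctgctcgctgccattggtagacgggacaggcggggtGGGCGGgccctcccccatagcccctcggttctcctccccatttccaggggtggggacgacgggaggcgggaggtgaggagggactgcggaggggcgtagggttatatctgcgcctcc
The GC box, searched on both strands, was in 6 of these 7 windows and in 35.7% of 32851 mouse promoter windows of the same length. CCAAT was in 4 of 7 and in 37.4% of all windows. The homeodomain core TAATTA was in 0 of 7 and in 5.29% of all windows, and TATAAA was in 0 of 7 and in 13.6%.

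Levels between genes are compared per length of transcript, as CPM per kilobase (kb). In 168FARN grown alone, Col4a1 was the most abundant member, at 173.4 ± 11 CPM per kb (SD, n = 3), followed by Col4a2 at 82.1 ± 0.40. Lamb1 (70.2 ± 1.13), Lamc1 (66.3 ± 0.314) and Lama5 (63.1 ± 0.934), which join in the common laminin trimer of epithelia, lay close together below them, and Hspg2 was at 53.4 ± 1.98. Lamb2 was lower, at 10.2 ± 0.366. Lama4, the alpha chain of endothelial and mesenchymal laminins, was at 0.951 ± 0.0912, and both nidogens were near the limit of detection, Nid1 at 0.0327 ± 0.0131. In LLC1 alone the order among the abundant chains began alike with Col4a1 at 211.6 ± 13.4 CPM per kb, but Lamb1 (175.6 ± 9.56) was above Col4a2 (138.8 ± 8.20). Lamc1 was at 108.4 ± 14.1, Lama5 at 84.7 ± 9.52, Hspg2 at 69.0 ± 11.1 and Nid1 at 64.2 ± 8.18. Lama5 and Hspg2 overlapped between libraries, as did Hspg2 and Nid1. Lamb2 was at 17.1 ± 0.367, and Lama4 and Nid2 had 0 counts in all 3 libraries, where 3 counts would have been 0.0283 to 0.0514 CPM over the LLC1 libraries. The clearest contrast in composition between the lines was thus Nid1, at 0.198 CPM in 168FARN alone and 388.0 CPM in LLC1 alone. These levels come from tables counted and scaled separately and are given as a description.

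**Figure D1:**
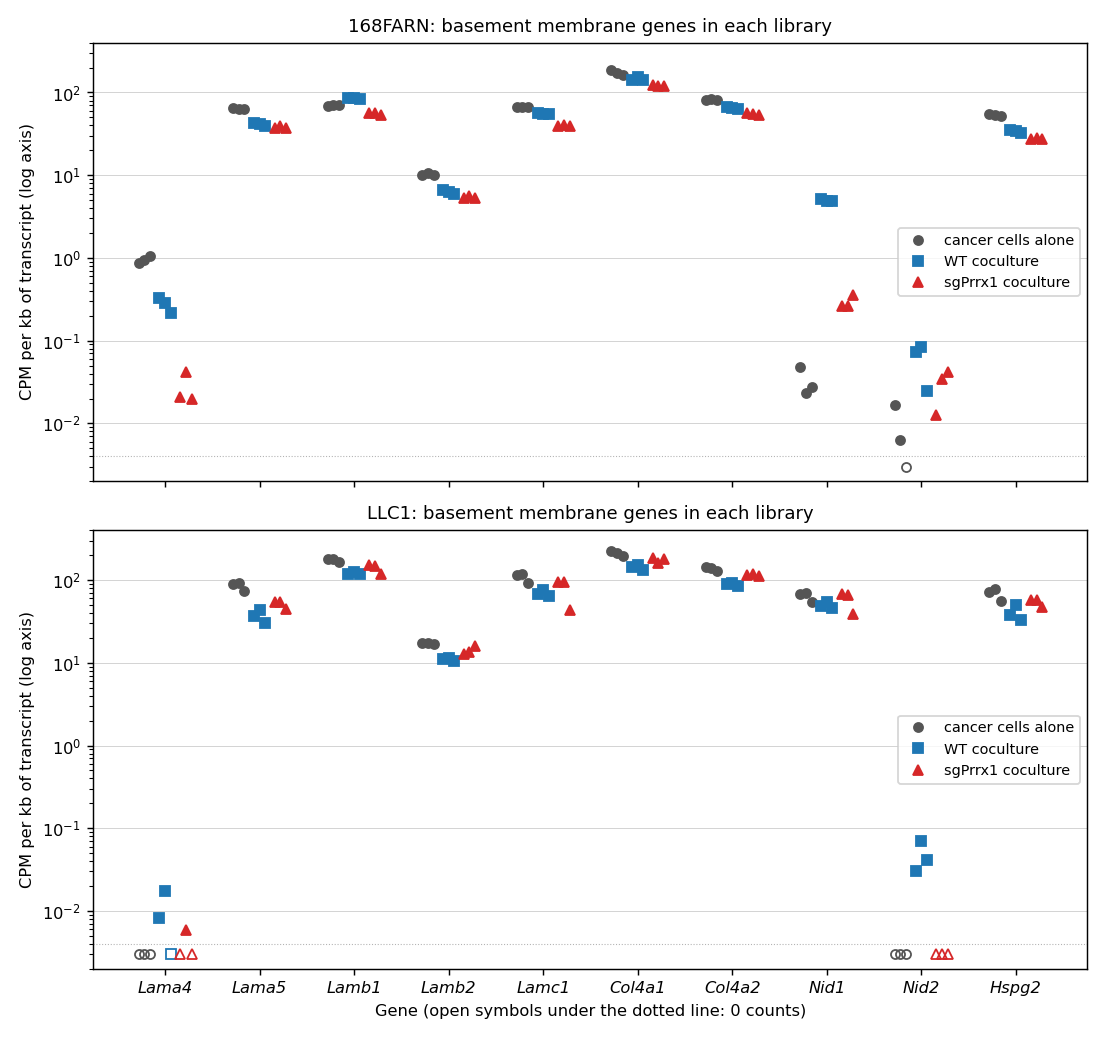
Level of each member in each library, as CPM per kb of transcript on a log axis, for 168FARN (top) and LLC1 (bottom); each symbol is 1 library, and open symbols under the dotted line are libraries with 0 counts. In 168FARN the groups step down from alone to WT to sgPrrx1 for most chains, with Lamb1, Nid1 and Nid2 higher in WT than alone; in LLC1 the WT coculture is the lowest group for most chains, and Lama4 and Nid2 are at or near 0.

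The first comparison asked how the basement membrane genes of 168FARN cells differed with and without WT fibroblasts. In coculture with WT MMTV-CAF, most structural chains fell modestly, Lama4 fell steeply, and Lamb1 and both nidogens rose. All 10 members passed edgeR's quasi-likelihood test at an adjusted p under 0.05, 3 higher and 7 lower, in a comparison where 64.1% of 13540 tested genes passed (33.4% higher and 30.7% lower). The median log2 fold change was -0.30 over the members and 0.01 over all tested genes. The share called is high for all genes here, so the direction and size of each member carry more than the count.

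Nid1, which links laminin to collagen IV, had 14, 9 and 8 counts in 168FARN alone, 2220, 2021 and 1440 in WT coculture, and 77, 96 and 129 in sgPrrx1 coculture. The 3 groups did not overlap. In CPM these were means of 0.198 ± 0.0790, 30.1 ± 1.27 and 1.80 ± 0.334 (SD, n = 3). Nid1 rose by a log2 fold change of 7.27 (SE 0.162, edgeR adjusted p = 4.66e-11) with WT CAF, which is 154.8-fold. With sgPrrx1 CAF it was still above alone, by 3.22 (SE 0.227, adjusted p = 6.98e-07), but it was lower than with WT CAF by 16.6-fold (log2 fold change -4.06, SE 0.114, adjusted p = 9.77e-10). Its relative Nid2 was near the limit of detection, with 4, 2 and 0 counts alone, 25, 28 and 6 in WT coculture, and 3, 10 and 12 in sgPrrx1 coculture. The rise of Nid2 with WT CAF passed the test (log2 fold change 2.96, SE 0.777, adjusted p = 0.00610), while sgPrrx1 against alone (1.93, adjusted p = 0.0882) and sgPrrx1 against WT (-1.03, adjusted p = 0.165) did not.

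Fibroblast genes moved in the same libraries. The summed level of 10 fibroblast markers was 122.0 to 126.2 CPM alone, with Thy1 and Postn at 0 in all 3 libraries. It was 793.6 to 865.2 CPM in WT coculture, with Fap at 0, and 218.8 to 227.8 CPM in sgPrrx1 coculture, with Lum, Thy1 and Fap at 0. Of the 8 markers tested, 7 were higher in WT than alone and 8 were lower in sgPrrx1 than in WT. Col1a1, a collagen I chain made in quantity by fibroblasts, was at 3.74 CPM alone, 160.7 in WT and 10.4 in sgPrrx1 coculture. The markers with counts in all 3 groups fell unevenly from WT to sgPrrx1 coculture. Their log2 fold changes were -3.95 (Col1a1), -3.53 (Col1a2), -2.87 (Col3a1), -1.10 (Dcn), -0.61 (Pdgfrb) and -0.43 (Pdgfra), against -4.06 for Nid1. Their part in the Nid1 result was not tested. In sorted bulk RNA, fewer cells of a type and less RNA per cell cannot be told apart.

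Lama4 took the opposite course. It had 253, 369 and 306 counts in 168FARN alone, 140, 118 and 64 in WT coculture, and 6, 15 and 7 in sgPrrx1 coculture. The groups stepped down without overlap, from 5.75 ± 0.551 to 1.67 ± 0.348 and 0.165 ± 0.0745 CPM. The log2 fold change was -1.77 (SE 0.183, adjusted p = 7.55e-06) with WT CAF and -5.08 (SE 0.258, adjusted p = 4.91e-08) with sgPrrx1 CAF, both against alone. Lama4 was thus lower with sgPrrx1 than with WT CAF by 9.96-fold (log2 fold change -3.32, SE 0.282, adjusted p = 2.13e-06), in the same direction as the fibroblast markers, although it fell where they rose between alone and WT.

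**Figure D2:**
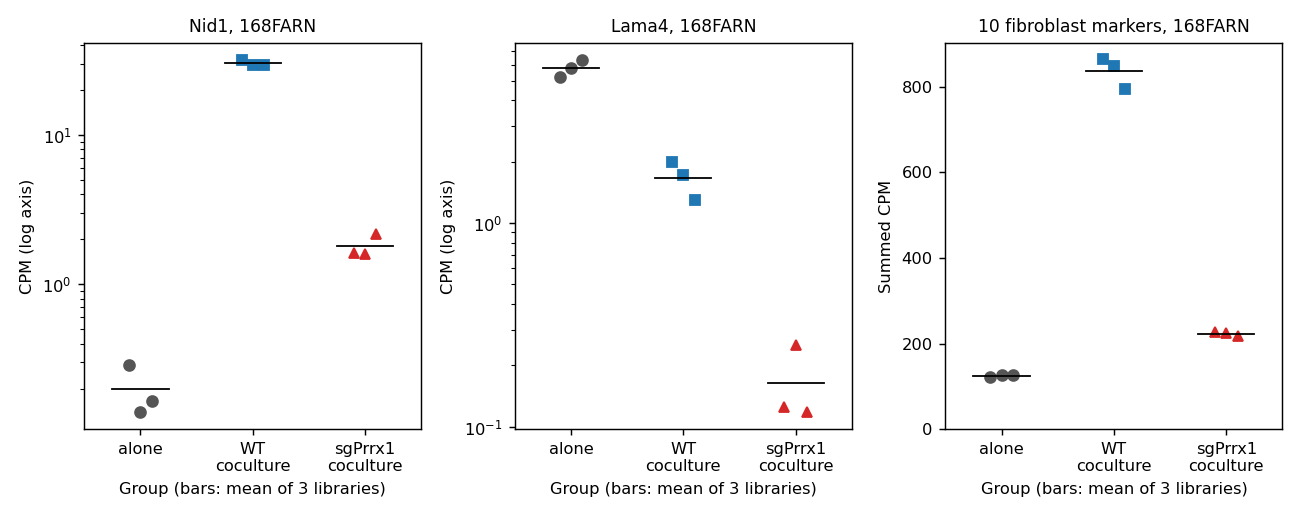
Nid1 (left) and Lama4 (middle) in CPM on log axes and the summed CPM of 10 fibroblast markers on a linear axis from 0 (right), in the 9 libraries of 168FARN; bars are means of 3 libraries. Nid1 and the fibroblast markers peak in WT coculture, at 29.2 to 31.5 CPM and 793.6 to 865.2 summed CPM, whereas Lama4 is highest alone and lowest in sgPrrx1 coculture.

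The laminin beta chains diverged in 168FARN. Lamb1, the beta chain of most laminins, was at 399.5, 412.5 and 405.6 CPM alone, 494.1, 501.2 and 483.8 in WT coculture, and 327.5, 328.6 and 313.3 in sgPrrx1 coculture. The WT libraries were the highest and the sgPrrx1 libraries the lowest, with no overlap. Lamb1 rose by 0.28 (SE 0.0261, adjusted p = 3.19e-06) with WT CAF and fell by 0.33 (SE 0.0261, adjusted p = 1.77e-06) with sgPrrx1 CAF, a difference between the cocultures of -0.61 (SE 0.0262, adjusted p = 1.63e-08) on the log2 scale. Lamb2, the beta chain of synaptic and glomerular laminins, instead fell with both, by 0.71 with WT and 0.93 with sgPrrx1 CAF. Lamb2 was at 56.1 to 59.8 CPM alone, 33.2 to 36.9 in WT and 29.5 to 31.2 in sgPrrx1 coculture. The ratio of Lamb1 to Lamb2 per length was 6.87 ± 0.148 alone, 13.6 ± 0.593 in WT and 10.4 ± 0.354 in sgPrrx1 coculture. No library of one group reached another, and the two-sided exact permutation p was 0.1 for each pair of groups, the smallest that 3 against 3 allows.

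The other abundant chains of 168FARN stepped down from alone to WT and again to sgPrrx1 coculture. Lama5, the main alpha chain of epithelial laminins, had log2 fold changes of -0.60 (WT against alone), -0.73 (sgPrrx1 against alone) and -0.13 (sgPrrx1 against WT), with SEs of 0.0327 to 0.0329. Lamc1, the gamma chain shared by most laminins, had -0.25, -0.74 and -0.49, with SEs of 0.0212 to 0.0213. Most of the fall of Lama5 was thus already present with WT CAF, whereas Lamc1 fell more between WT and sgPrrx1 CAF. Perlecan (Hspg2) was at 728.2 to 784.2 CPM alone, 464.7 to 497.2 in WT and 388.5 to 401.4 in sgPrrx1 coculture, with log2 fold changes of -0.64, -0.95 and -0.30.

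The collagen IV chains fell together. Col4a1 was at 1226, 1133 and 1082 CPM in 168FARN alone, 933.6, 1027 and 931.8 in WT coculture and 807.4, 795.9 and 790.1 in sgPrrx1 coculture. Its log2 fold changes were -0.25 (SE 0.0455, adjusted p = 0.000558) in WT against alone and -0.27 (SE 0.0455, adjusted p = 0.000346) in sgPrrx1 against WT. Col4a2 had -0.34 (SE 0.0278, adjusted p = 1.10e-06) and -0.24 (SE 0.0278, adjusted p = 2.10e-05) in the same comparisons. The ratio of Col4a1 to Col4a2 per length was 2.11 ± 0.137 alone, 2.25 ± 0.143 in WT and 2.20 ± 0.0147 in sgPrrx1 coculture, with exact permutation p from 0.3 to 0.7 (two-sided). The libraries of the 3 groups overlapped, and 3 against 3 cannot give a p below 0.1.

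Across the members, 8 of 10 had their lowest level in 168FARN cells with sgPrrx1 CAF, and Nid1 and Nid2 were lowest alone. Against alone, 9 of 10 passed the edgeR test, 1 higher (Nid1) and 8 lower, where 49.7% of all tested genes passed (25.7% higher and 24.1% lower). The median log2 fold change was -0.66 over the members and 0.005 over all tested genes. Against WT coculture, 9 passed and all 9 were lower, where 60.0% of tested genes passed, 26.9% higher and 33.1% lower. The medians were -0.40 and -0.03. With an added requirement of a log2 fold change beyond 1 in size, 3 members were called in WT against alone (Lama4, Nid1 and Nid2), where 10.2% of all tested genes were. Nid1 and Lama4 met it in the other comparisons, where 7.25% (sgPrrx1 against alone) and 6.19% (sgPrrx1 against WT) of tested genes did. Leaving out each library in turn kept the counts at 10, 9 and 9. Of all tested genes, 59.1% to 62.7%, 43.0% to 50.9% and 54.4% to 59.0% passed in those settings.

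In LLC1 most of the same chains were lower in coculture with WT wound healing fibroblasts than alone. Of 9 members tested, 7 passed the edgeR test in WT coculture against alone, 6 lower and 1 higher, where 8.83% of 12873 tested genes passed, 4.25% higher and 4.58% lower. The median log2 fold change was -0.63 over the members and -0.02 over all tested genes. Lama4 was not tested, with 0 counts in each library alone, 4, 8 and 0 in WT coculture and 0, 3 and 0 in sgPrrx1 coculture. The number of calls depended on single libraries: it was 2 without alone replicate 1, alone replicate 2, WT replicate 1 or WT replicate 3, where 2.13%, 2.09%, 2.19% and 2.32% of tested genes passed, 4 without alone replicate 3 (3.05%) and 5 without WT replicate 2 (2.78%). It was 6 without sgPrrx1 replicate 1 (6.90%) or replicate 2 (6.99%), and 9 without sgPrrx1 replicate 3 (44.2%). The share of all genes called thus moved with the same libraries.

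Lama5 had the largest fall, from 1016, 1038 and 840.0 CPM alone to 417.5, 488.6 and 346.5 in WT coculture (log2 fold change -1.21, SE 0.156, adjusted p = 0.00499). The groups did not overlap. Hspg2 fell by 0.79 (SE 0.185, adjusted p = 0.0361), Col4a2 by 0.65 (SE 0.0871, adjusted p = 0.00549), Lamb2 by 0.63 (SE 0.105, adjusted p = 0.0114), Col4a1 by 0.58 (SE 0.0995, adjusted p = 0.0125) and Lamb1 by 0.55 (SE 0.113, adjusted p = 0.0223). Lamc1 (-0.64, SE 0.276, adjusted p = 0.204) and Nid1 (-0.37, SE 0.209, adjusted p = 0.331) did not pass. Without sgPrrx1 replicate 3, Lamc1 (-0.62, SE 0.0943, adjusted p = 0.00115) and Nid1 (-0.35, SE 0.0943, adjusted p = 0.0154) passed too.

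Nid2 was the exception. It had 0 counts in each LLC1 library alone, 12, 26 and 15 in WT coculture, and 0 in each library of sgPrrx1 coculture. It was at least 6.16-fold higher in WT than alone, against a floor of 3 counts per library (edgeR adjusted p = 0.0354), and without any 1 of the alone or WT libraries it did not pass (adjusted p from 0.0823 to 0.140). Between the cocultures it was at least 6.05-fold lower in sgPrrx1 (adjusted p = 0.208). Fibroblast markers did not move as 1 group in LLC1: their summed level was 1637 to 1719 CPM alone, 1183 to 1206 in WT coculture and 1480 to 1567 in sgPrrx1 coculture, and was mostly Col3a1. Of the 7 markers tested, 3 were higher (Col1a1, Col1a2 and Dcn) and 2 lower (Col3a1 and Pdgfrb) in WT coculture than alone, and 2 were lower in sgPrrx1 than in WT coculture (Col1a1 and Col1a2). Lum was also lower in WT coculture than alone, and Col3a1 higher in sgPrrx1 than in WT coculture, when sgPrrx1 replicate 3 was left out. Col1a2 was at 0.0296 CPM alone, 8.68 in WT and 0.264 in sgPrrx1 coculture. Dcn, a small proteoglycan of connective tissue, was at 2.85, 30.1 and 21.4 CPM, and Pdgfrb at 5.59, 2.38 and 3.01. Of the endothelial markers, Kdr was higher in WT coculture than alone without sgPrrx1 replicate 3, while Vwf and Egfl7 were lower. Kdr was then also lower in sgPrrx1 than in WT coculture (log2 fold change -5.09). The part of these markers in the Nid2 result was not tested.

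With sgPrrx1 fibroblasts the means of the 8 abundant LLC1 members lay between alone and WT coculture. For Nid1 this rested on sgPrrx1 replicate 3. Without that library its mean was 409.1 CPM in sgPrrx1 coculture and 392.0 alone. Lama5 was the only member that passed against alone (-0.74, SE 0.155, adjusted p = 0.0383), where 4.32% of tested genes passed (2.01% higher and 2.31% lower), and it did not pass when any 1 library other than sgPrrx1 replicate 3 was left out. Without that library 5 members passed, all lower (Lama5, Lamb1, Lamb2, Col4a1 and Col4a2), where 26.7% of tested genes did. Lamb2 was at 94.3 to 98.4 CPM alone, 58.9 to 64.7 in WT and 71.8, 75.3 and 89.8 in sgPrrx1 coculture. Col4a2 was at 835.5 to 936.2 CPM alone, 539.3 to 600.8 in WT and 747.0, 752.8 and 725.5 in sgPrrx1 coculture. For both genes the 3 groups did not overlap. Lamc1 was less even, at 720.9 and 713.8 CPM in sgPrrx1 replicates 1 and 2 but 326.7 in replicate 3, below every WT library.

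Between the LLC1 cocultures, all 8 abundant members had a positive log2 fold change for sgPrrx1 against WT, from 0.14 to 0.46, and edgeR called 0 of the 9 tested, where 0.0544% of tested genes passed. At an unadjusted p under 0.05, 6 of the 9 passed, where 12.0% of all tested genes did. They were Lama5, Lamb2, Col4a1, Col4a2 and Hspg2, all higher in sgPrrx1, and Nid2, lower. DESeq2 called 3 members, 2 higher and 1 lower, where it called 3.90% of tested genes, and limma with sample quality weights called 9, 8 higher and 1 lower, where it called 36.4%. Among the abundant members the largest fold changes were those of Lama5 (0.46, SE 0.154, adjusted p = 0.330), Hspg2 (0.42, SE 0.184, adjusted p = 0.415) and Col4a2 (0.38, SE 0.0869, adjusted p = 0.208). Without sgPrrx1 replicate 3, where 5.69% of tested genes passed (2.94% higher and 2.75% lower), 4 members passed: Lamb1 (0.32, SE 0.0525, adjusted p = 0.0268), Lamb2 (0.23, SE 0.0562, adjusted p = 0.0498) and Col4a2 (0.39, SE 0.0627, adjusted p = 0.0245) were higher, and Nid2 was lower.

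**Figure D3:**
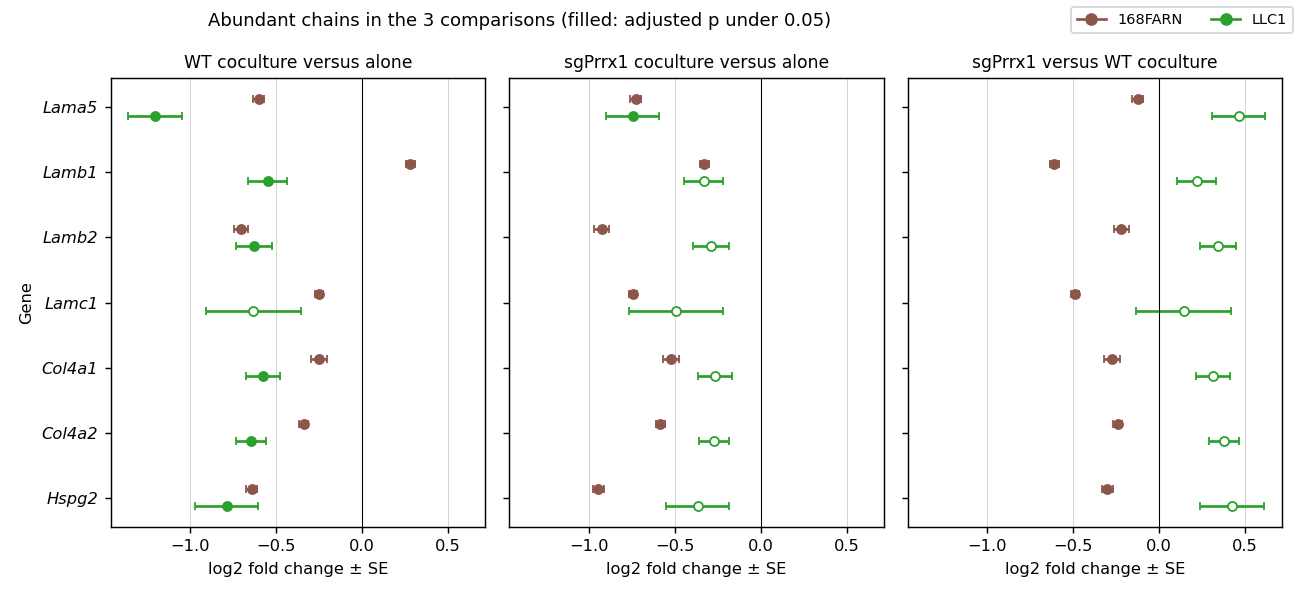
Log2 fold changes with their SE (horizontal bars) for the 7 chains that were abundant in both lines, in 168FARN (brown) and LLC1 (green), with filled symbols where the adjusted p was under 0.05. In sgPrrx1 against WT coculture (right panel) all 7 lie below 0 in 168FARN and above 0 in LLC1; in WT against alone (left panel) only Lamb1 in 168FARN lies above 0.

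The difference between the lines was tested as an interaction term in a joint edgeR fit of the 18 libraries, for the 8 members that could be compared. Lama4 and Nid2 were left out because a group had at most 3 counts in every library. In sgPrrx1 against WT coculture, 7 of 8 differed, all with the LLC1 log2 fold change above that of 168FARN, where 19.5% of tested genes differed in either direction. The difference was 4.25 for Nid1 (SE 0.292, adjusted p = 2.95e-07) and 0.54 to 0.81 for Lama5, Lamb1, Lamb2, Col4a1, Col4a2 and Hspg2. That of Lamc1 was 0.62 (SE 0.298, adjusted p = 0.172). Without LLC1 sgPrrx1 replicate 3, 8 of 8 differed, where 44.8% of tested genes did. The sign of the change was thus negative for all 8 in 168FARN, where each passed, and positive for all 8 in LLC1, where edgeR called none with all libraries (DESeq2 called 2 higher and limma with sample quality weights 8).

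In WT coculture against alone, 5 of 8 differed between the lines, all lower in LLC1, where 29.4% of tested genes differed. These were Lama5, Lamb1, Col4a1, Col4a2 and Nid1, and 6 differed without LLC1 sgPrrx1 replicate 3, where 52.7% of tested genes did. The difference was -0.82 for Lamb1 (SE 0.12, adjusted p = 0.000106), which rose in 168FARN and fell in LLC1. In sgPrrx1 coculture against alone, 3 differed (Lamb2, Col4a2 and Nid1), where 12.3% of tested genes did, and 5 differed without LLC1 sgPrrx1 replicate 3, where 28.5% did. The comparisons within a line share libraries, so their counts are not independent.

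**Figure D4:**
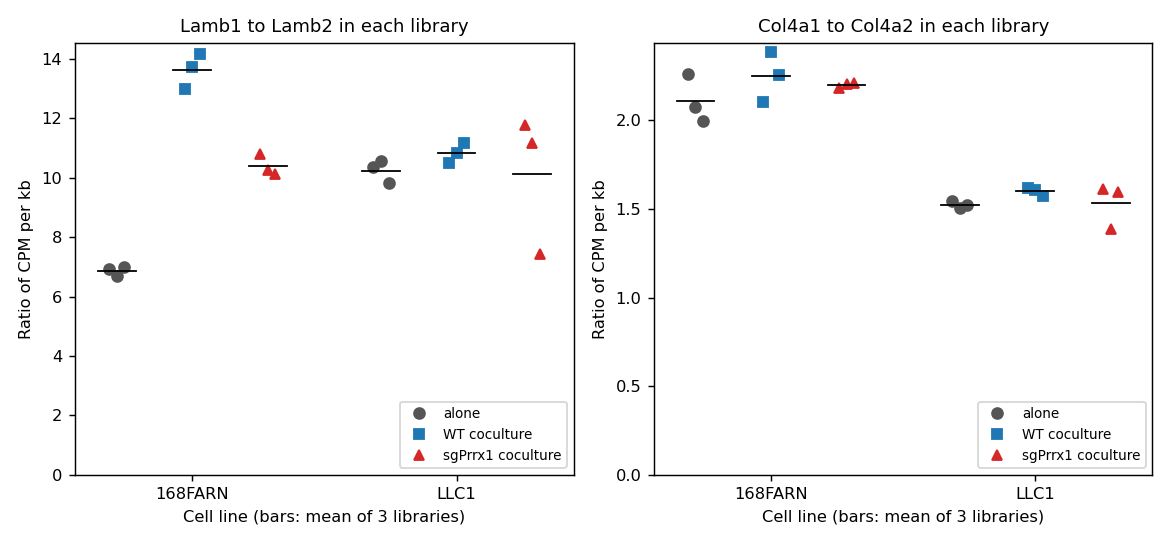
Ratio of Lamb1 to Lamb2 (left) and of Col4a1 to Col4a2 (right), as CPM per kb over CPM per kb, in each library on axes from 0; bars are means of 3 libraries. In 168FARN the Lamb1 to Lamb2 ratio goes from 6.87 alone to 13.6 in WT and 10.4 in sgPrrx1 coculture, while the collagen ratio lies between 2.0 and 2.39 in 168FARN and between 1.39 and 1.62 in LLC1.

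In LLC1 the ratio of Lamb1 to Lamb2 per length was 10.2 ± 0.383 alone, 10.8 ± 0.352 in WT and 10.1 ± 2.37 in sgPrrx1 coculture, where replicate 3 was at 7.42 and the others at 11.8 and 11.2. The exact permutation p was 0.2 or more for each pair of groups (two-sided). The ratio of Col4a1 to Col4a2 was 1.52 ± 0.0182, 1.60 ± 0.0252 and 1.53 ± 0.127, below the 168FARN values in every library. It was 1.51 to 1.54 alone and 1.57 to 1.62 in WT coculture, which did not overlap (two-sided exact permutation p = 0.1, the smallest that 3 against 3 allows). The sgPrrx1 libraries, at 1.61, 1.39 and 1.60, spanned both groups (exact permutation p = 1 against alone and 0.6 against WT).

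Other genes of the basement membrane were read from lists of other laminin and collagen IV chains, associated proteins, receptors, and enzymes of collagen assembly and secretion. Their counts are to be read against the shares of all tested genes that passed in the same comparisons: 64.1% (WT against alone), 49.7% (sgPrrx1 against alone) and 60.0% (sgPrrx1 against WT) in 168FARN, and 8.83%, 4.32% and 0.0544% in LLC1, or 44.2%, 26.7% and 5.69% in LLC1 without sgPrrx1 replicate 3. Of the other chains, 6 of 10 were tested in 168FARN, and 2 rose and 2 fell in WT coculture against alone. Col4a5, a collagen IV chain of kidney and epithelia, fell by 1.16 and Lamb3, a laminin beta chain of epithelial anchoring complexes, by 0.75, while Col4a6 rose by 0.82. Between the cocultures, Lama3 (0.99) was higher with sgPrrx1 than with WT CAF and Lamb3 (-0.53) and Col4a6 (-0.79) were lower. In sgPrrx1 against alone, Lama3 (1.31) was higher and Lamb3 and Col4a5 (-1.28 each) were lower. In LLC1, 4 were tested: 2 were higher in WT coculture than alone, and none passed in the other comparisons. Without sgPrrx1 replicate 3, 2 rose in WT coculture against alone, none passed in sgPrrx1 against alone, and 2 were lower in sgPrrx1 than in WT coculture. Col4a5 was higher in WT coculture than alone (edgeR adjusted p = 0.0325), with 2, 0 and 0 counts alone, 54, 34 and 17 in WT coculture and 0, 0 and 5 in sgPrrx1 coculture. Such counts give no fold change that can be read.

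Of 20 associated proteins, 15 were tested in 168FARN, and 6 rose and 4 fell in WT coculture. Fbln2, the matrix glycoprotein fibulin-2, rose by 3.83, from 18.7 to 265.5 CPM, Ccdc80 rose by 3.70, and Fbln1 had 0 counts in each library alone and 10.6 ± 0.551 CPM in WT coculture. Tinagl1 (-1.0), the laminin-related guidance factor Ntn1 (-0.97) and Col18a1 (-0.45), the source of endostatin, fell. Between the cocultures, 9 were lower with sgPrrx1 CAF and 1 was higher (Egflam, 2.48, from 0.109 CPM in WT to 0.628 in sgPrrx1 coculture). Npnt went from 49, 44 and 15 counts in WT to 0, 0 and 3 in sgPrrx1 coculture, and Fbln1 (-3.82) and Fbln2 (-2.67) fell, the fibulins again moving in the direction of the fibroblast markers. Against alone, 5 rose and 5 fell with sgPrrx1 CAF. Egflam (2.09, from 0.151 CPM alone) and Ccdc80 (1.44, from 0.480 CPM) were higher and Fbln1 was at 0.734 CPM. Tinagl1 (-1.15), Ntn1 (-1.08) and Col18a1 (-0.78) were lower. In LLC1, 13 were tested. Fbln2 rose in WT coculture, from 0.0331 to 6.08 CPM, and Agrn (-0.83), Ntn1 (-0.73) and Fbln1 (-0.43) fell. Alone, Fbln2 was below the level of 3 counts (0.0368 to 0.0385 CPM in those libraries). Its fold changes against alone are therefore not given. Fbln2 was also the only associated protein called between the LLC1 cocultures (-3.21, edgeR adjusted p = 0.0398). In sgPrrx1 against alone, Fbln2 and Smoc1 (0.78) were called, both higher. Without sgPrrx1 replicate 3, 14 were tested. Of these, 3 rose and 8 fell in WT coculture against alone, 2 rose and 4 fell in sgPrrx1 against alone, and 3 were higher and 2 lower between the cocultures.

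Of 13 laminin and collagen IV receptors in 168FARN, 10 rose with WT CAF and 1 fell, Itgb4 (-0.29), the integrin beta chain of hemidesmosomes. Itga6, a laminin-binding integrin alpha chain, rose by 1.35 and the Lutheran laminin receptor Bcam by 2.29 from a mean of 0.0825 CPM, and Itga2 had 0 counts in each library alone and 0.380 ± 0.148 CPM in WT coculture. With sgPrrx1 rather than WT CAF 11 of 13 fell and 0 rose, led by Itga6 (-1.01) and Itgb1 (-0.62), the beta chain that most laminin- and collagen-binding integrins share, with Itga2 back at 0 counts. In sgPrrx1 against alone 2 rose, Sdc1 (0.12) and Sdc4 (0.08), and 6 fell, led by Itgb4 (-0.46), Ddr2 (-0.35) and Itga1 (-0.22). In LLC1, 2 of 12 tested fell with WT fibroblasts, the collagen receptor Ddr1 (-0.47) and the syndecan Sdc4 (-0.34), and none of the 12 passed in the other comparisons. Without sgPrrx1 replicate 3, 3 rose and 6 fell in WT coculture against alone, 2 rose and 2 fell in sgPrrx1 against alone, and Ddr1 (0.25) and Itga3 (0.27) were higher in sgPrrx1 than in WT coculture.

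Of 15 assembly and secretion enzymes tested in 168FARN, 8 rose and 4 fell in WT coculture. Loxl2, which crosslinks collagen IV, rose by 8.03 from a mean of 0.0721 CPM alone (at most 6 counts). The collagen chaperone Serpinh1 rose by 6.79 from 0.488 CPM (at most 33 counts), and the prolyl hydroxylase subunit P4ha2 by 1.09. P3h2 (-0.82), P4hb (-0.42) and Ppib (-0.17) fell. With sgPrrx1 rather than WT CAF, 12 fell and 2 rose. Loxl2 (-3.92), Serpinh1 (-2.76) and P4ha2 (-0.92) led the falls, and Ppib (0.28) and P4hb (0.19) rose. In sgPrrx1 against alone 4 rose, led by Loxl2 (4.10), Serpinh1 (4.03) and P4ha2 (0.17), and 8 fell, led by P3h2 (-0.76), Plod1 (-0.44) and P3h1 (-0.43). In LLC1, 16 were tested. Loxl2 rose (3.81, from 5, 11 and 5 counts to 81, 126 and 79) and P4ha3 fell (-0.62) in WT coculture against alone. None of the 16 passed in the other comparisons. Without sgPrrx1 replicate 3, 2 rose and 6 fell in WT coculture against alone, and 2 rose and 2 fell in sgPrrx1 against alone. Between the cocultures Loxl2 (-3.72) was then lower and P4ha3 (0.58) and Plod1 (0.24) were higher in sgPrrx1.

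Genes whose levels ran most like a member were sought over the 9 libraries of a line. In 168FARN the closest to Lama4 were Emilin1 and AW549877 (both r = 0.992) and Son (r = 0.991), and the closest to Col4a1 were Eif2ak3 (r = 0.984), Naip2 (r = 0.980) and Pltp (r = 0.978), of 10867 genes compared. In LLC1 the closest to Col4a1 were Runx1 (r = 0.987) and Ankrd46 (r = 0.977), of 10995. These correlations are of log2 CPM over 9 libraries that share 3 groups and their depth, and are a description. Among the members themselves, Lama4 and Lamc1 had r = 0.992 in 168FARN, whereas Nid1 and Lama5 had r = -0.72. In LLC1 Nid1 and Lamc1 had r = 0.957, and both were low in sgPrrx1 replicate 3. Over the other 8 libraries that r was 0.921.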

How the data were processed

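RNA of sorted cancer cells was sequenced as 100 bp paired reads in 18 libraries. Per the study's methods the authors trimmed the reads with Trimmomatic, aligned them to mm10 with STAR and counted them per gene with HTSeq; the strand setting is not given in the sources used here. The study's methods also name a batch correction with ComBat-seq after counting. Whether the counts used here went through it is not stated. The deposited values are read counts per gene symbol, 1 table per line, with upper-case symbols for 168FARN, and all 18 columns were used. Groups and replicates follow the sample titles.

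Counts were tested in R 4.3.3 with edgeR 4.0.16 (TMM scaling, filterByExpr, quasi-likelihood test of the 9 libraries of a line in 1 fit, Benjamini-Hochberg adjustment over all tested genes, threshold 0.05). The scripts were tested on simulated data with known changes. Differences between lines were interaction terms of a joint fit of the 18 libraries. CPM used TMM-scaled totals. Levels per kb used the longest protein-coding transcript of GENCODE vM1, in place of the RefSeq length first planned. Ratios were compared by two-sided exact permutation tests. Counts of 0 were read against a floor of 3 counts per library, which covers counting error only. Of the symbols, 95.9% matched RefSeq, whose coordinates and promoter sequences are of GRCm38.p6.

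The members and the lists (4 lists of related genes, 5 of cell type markers) were chosen with earlier results of these data known. From each related list the text names, of the called genes, the 3 that rose most and the 3 that fell most in each comparison; the 3 genes best correlated with Lama4 and Col4a1 were taken from those with a mean of at least 100 counts. Members were named in full. Of the genes this rule names, 2 are not reported here. Alternatives were DESeq2 1.42.0, limma 3.58.1 (voom with sample quality weights), RLE or no scaling, other filters on low counts, a replicate block, a fold threshold and leaving out each library.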

Additional observations from a re-analysis of the deposited data

Results flagged for a closer look

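The log2 fold changes of the members were compared between LLC1 and 168FARN in a joint edgeR fit, and those with an adjusted p under 0.05 are listed as LLC1 minus 168FARN. In WT coculture against alone the difference was -0.60 for Lama5, -0.82 for Lamb1, -0.32 for Col4a1, -0.30 for Col4a2 and -7.63 for Nid1. Lamb1 and Nid1 rose in 168FARN, whereas Lama5, Col4a1 and Col4a2 fell in both lines and fell further in LLC1. In sgPrrx1 coculture against alone it was 0.63 for Lamb2, 0.30 for Col4a2 and -3.37 for Nid1. In sgPrrx1 against WT coculture it was 0.57 for Lama5, 0.81 for Lamb1, 0.54 for Lamb2, 0.57 for Col4a1, 0.60 for Col4a2, 4.25 for Nid1 and 0.71 for Hspg2. The line, the kind of fibroblast and the table of counts cannot be told apart in these differences.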

How the results depend on the processing

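In 168FARN the members called were 10, 9 and 9 (WT against alone, sgPrrx1 against alone, sgPrrx1 against WT) without each library in turn. Of all tested genes, 59.1% to 62.7%, 43.0% to 50.9% and 54.4% to 59.0% were called in those settings. With a log2 fold change over 1 in size also required, 3, 2 and 2 members were called, where 10.2%, 7.25% and 6.19% of tested genes were. A filter of at least 10 counts in every library left 7 members tested, and all 7 were called in each comparison, where 66.3%, 52.5% and 64% of tested genes were. In LLC1, leaving out 1 library gave 2 to 9 members in WT against alone, where 2.09% to 44.2% of tested genes passed. It gave 0 to 5 in sgPrrx1 against alone (0.398% to 26.7% of tested genes) and 0 to 4 in sgPrrx1 against WT (0.0229% to 5.69%). The fold requirement gave 2 in WT against alone (2.56% of tested genes) and 0 in sgPrrx1 against alone (0.924%). For sgPrrx1 against alone, DESeq2 gave 3 (15.1% of tested genes), no scaling factors 2 (5.44%) and limma with sample quality weights 7 (48%). For sgPrrx1 against WT, DESeq2 gave 3 (3.90% of tested genes) and limma with sample quality weights 9 (36.4%). Without LLC1 sgPrrx1 replicate 3, the lines differed in 5 members in sgPrrx1 against alone, where 28.5% of tested genes differed. Signs turned only for values that did not pass: Nid1 in LLC1 sgPrrx1 against alone ran from -0.30 to 0.062 over the omissions of 1 library (0.062 without sgPrrx1 replicate 3), Lamc1 in sgPrrx1 against WT from -0.033 to 0.43 (-0.033 and -0.023 without sgPrrx1 replicates 1 and 2), and the difference between lines in sgPrrx1 against alone was 0.085 for Lama5 and 0.11 for Lamb1 without LLC1 sgPrrx1 replicate 3. Apart from the fewer genes or libraries in a setting, the cause was not tested. Libraries with the same number had a mean correlation of deviations of -0.01 in 168FARN (-0.08 to 0.05) and 0.12 in LLC1 (-0.03 to 0.33), against 0.007 and -0.06 for different numbers. Since not every pair was over 0.1, the numbers were not taken to pair the libraries. A replicate block gave 10, 9 and 9 members in 168FARN (63.2%, 49.1% and 59.4% of tested genes), 6, 1 and 0 in LLC1 (7.99%, 2.96% and 0.0155%), and 5, 4 and 7 for the differences between lines (32.6%, 14.2% and 22.4%). With it, Nid2 in LLC1 WT against alone did not pass (adjusted p = 0.116), and Hspg2 differed between the lines in sgPrrx1 against alone (adjusted p = 0.00327). The depth limits Lama4 and Nid2 in LLC1 and Nid2 in 168FARN, which had at most 28 counts in a library.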
